A study of Homo sapiens with 14 samples.

Results

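Editing was followed in 6 transcripts of iron handling and oxygen sensing, TFRC, FTH1, FTL, VHL, EGLN2 and HIF1A. The sites were all positions in the 14 lists that fell inside the hg19 span of 1 of these genes, and there were 54 of them among 26172 distinct positions in all. The spans were chr3:195776155-195809032 for TFRC, chr11:61731757-61735132 for FTH1, chr19:49468566-49470136 for FTL, chr3:10183319-10195354 for VHL, chr19:41304847-41314338 for EGLN2 and chr14:62162119-62214977 for HIF1A. TFRC and FTH1 are transcribed towards lower coordinates and the other 4 towards higher ones. The genes were chosen by editing levels in these same lists. In them a TFRC site ranks first in dCas13d-ADAR EZH2 replicate 1 and in most Repair.t1 libraries, and a VHL site ranks first in DECOR replicate 1. Levels and ranks below therefore describe the sites and are no support for the choice.

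HEK293T cells, which descend from human embryonic kidney, carried 1 of 4 RNA base editors, proteins meant to convert adenosine to inosine, which sequencing reads as guanosine. Each of the 14 libraries of polyadenylated RNA gave 1 list of sites with the A-to-G rate, a fraction from 0 to 1 taken as the editing level. The 7 groups of 2 libraries were DECOR with the MALAT1 guide, dCas13d-ADAR with the EZH2 or NT guide, Repair.t1 with the EZH2_A22 or NT guide, and Repair.v2 with the EZH2_A22 or NT guide. Every group carried an editor and a guide, so no list shows the cells without one, and some listed sites may owe nothing to an editor. NT is not spelled out in the labels, which also leave unsaid whether both libraries of a group had a culture each. P-values therefore measure the spread between libraries, which may be technical. DECOR was run with a guide of its own and was read for 62 and 160 cycles, where the other libraries had 25 and 97 cycles. For DECOR the editor thus cannot be told apart from its guide or its reads.

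Iron enters most cells when transferrin binds the receptor encoded by TFRC, and it is stored inside shells built from the ferritin heavy and light chains that FTH1 and FTL encode. Iron regulatory proteins bind hairpins called iron-responsive elements in the untranslated parts of these messages, which steadies the receptor message and holds back translation of the ferritins when iron is short. Oxygen is sensed on the HIF1A protein, the transcription factor of the response to hypoxia. Iron-dependent prolyl hydroxylases such as that of EGLN2 mark it when oxygen is present, and the VHL protein then directs it to degradation.

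The regulatory hairpin of FTL lies near the start of its message, and its loop is shown because FTL was the gene with the most listed sites. RefSeq (GRCh38.p14, plus strand, chr19:48965336-48965358) gives bases 28 to 50 of the FTL transcript, with the loop in capitals.
FTL: tcttgcttcaaCAGTGTttggac
The pattern searched was a C, then any 5 bases, then CAGTGN (the loop, N being any base), in the first 50 transcribed bases of the 35116 start windows of RefSeq. It was found in 1.67% of them on the transcribed strand and in 1.66% on the other. Among the 6 windows of TFRC, HIF1A, EGLN2 and FTL, that of FTL alone held it, at bases 39 to 44 for the loop. FTH1 and VHL had no window there and were not searched. Elements beyond the first 50 bases of any of these genes were not searched for either, so the result does not set FTL apart. The hg19 span of FTL and the RefSeq gene are both 1571 bases long, and the listed site nearest to the start was base 113 of the span, past the bases shown. No annotation or sequence of hg19 was used here, so the exons, introns and untranslated regions of the sites and their neighbouring bases were not analysed.

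HIF1A had no listed site in any of the 14 libraries across 52.9 kb. Of the 54 sites in the other 5 genes, FTL had 14, EGLN2 13, TFRC 12, VHL 12 and FTH1 3. A gene's expression, its read depth and the authors' calling threshold all bear on what is listed and are unknown here, so an absence does not show that a transcript was unedited. Between 11 and 14 of the sites stood in each dCas13d-ADAR library, 8 to 15 in each Repair.t1 library, 7 and 14 in the DECOR libraries and 0 to 2 in each Repair.v2 library. The full lists held 5516 and 5855 sites for DECOR, 5730 to 5834 for dCas13d-ADAR, 4356 to 4784 for Repair.t1 and 46 to 101 for Repair.v2. As a share of its list, the 6 spans made up 0.127% and 0.239% for DECOR, 0.192% to 0.240% for dCas13d-ADAR and 0.171% to 0.314% for Repair.t1, ranges that overlapped. In the short Repair.v2 lists the shares were 0% and 0.990% with the EZH2_A22 guide and 4.35% and 2.17% with the NT guide, and each rests on 2 sites or fewer.

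**Figure D1:**
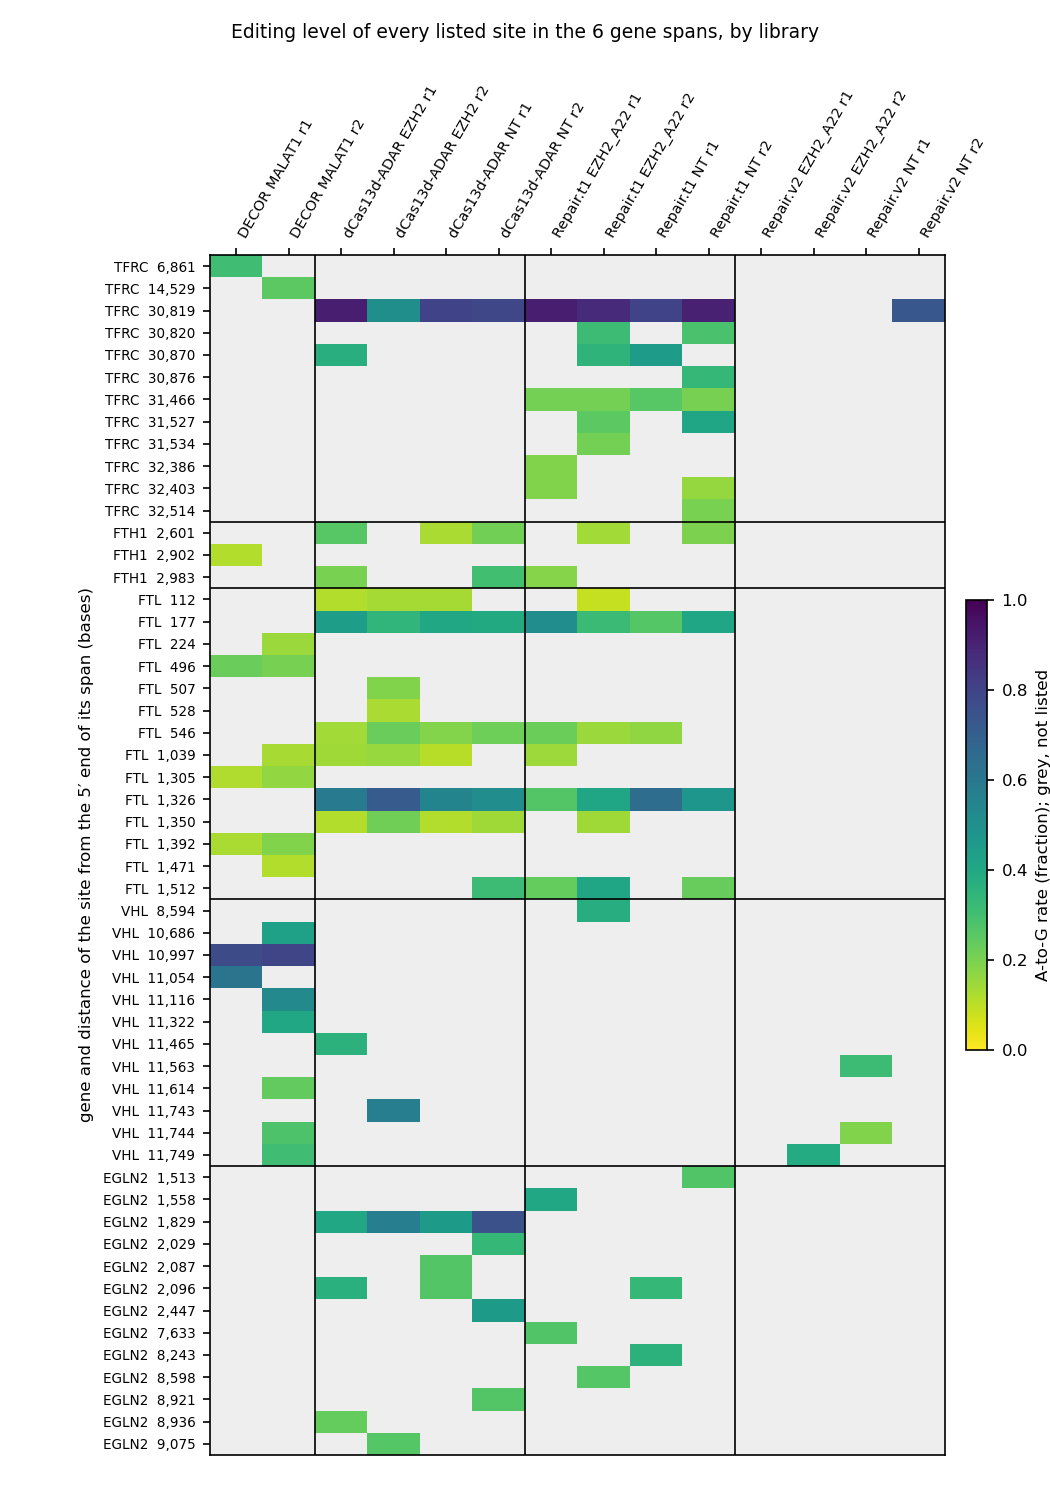
Editing level (A-to-G rate, fraction from 0 to 1, colour scale) of each of the 54 listed sites in the 6 gene spans (rows, labelled by gene and by distance in bases from the 5′ end of the span) in the 14 libraries (columns, r1 and r2 are replicates), with grey where a library did not list the site. Dark cells run along 1 TFRC row through dCas13d-ADAR and Repair.t1, and DECOR cells gather in VHL and FTL; HIF1A has no row because it had no listed site.

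The listed sites were spread unevenly over genes and editors. Repair.t1 listed 10 of the 12 TFRC sites and dCas13d-ADAR 2. DECOR listed 8 of the 12 VHL sites, Repair.v2 3, dCas13d-ADAR 2 and Repair.t1 1. In EGLN2, DECOR listed 0 sites, dCas13d-ADAR 8 and Repair.t1 6. FTL had 6 sites for DECOR, 9 for dCas13d-ADAR, 7 for Repair.t1 and 0 for Repair.v2. These counts were not tested, since the genes were chosen with the lists known.

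TFRC, the receptor that brings in iron, carried the most highly edited of all these sites. At position 195778213 on chromosome 3, which is 2058 bases from the 3′ end of the span, dCas13d-ADAR libraries had levels of 0.917 and 0.500 with the EZH2 guide and 0.800 and 0.786 with the NT guide. Repair.t1 libraries had 0.917 and 0.882 with the EZH2_A22 guide and 0.800 and 0.909 with the NT guide. Among Repair.v2 libraries NT replicate 2 listed it, at 0.727, and neither DECOR library did. All these levels but 1 were above 0.7, the exception being dCas13d-ADAR EZH2 replicate 2. The site ranked first in 3 of the 4 Repair.t1 libraries and second in the fourth, first in dCas13d-ADAR EZH2 replicate 1 and in Repair.v2 NT replicate 2, and 5th, 15th and 266th in the other dCas13d-ADAR libraries. Depth at the site is not given, so these levels and ranks may rest on few reads.

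The mean level at this TFRC site was 0.751 ± 0.177 in dCas13d-ADAR and 0.877 ± 0.0534 in Repair.t1 (SD, n = 4 each), and the 2 sets of libraries overlapped. In limma, with the guide as a covariate and the 609 sites that all 8 libraries of these editors listed, dCas13d-ADAR minus Repair.t1 was -1.04 (SE 0.42) on the log2 odds scale with an adjusted p of 0.116. The difference did not pass, and it passed when Repair.t1 NT replicate 1 was left out (-1.36, limma adjusted p = 0.0276) or dCas13d-ADAR EZH2 replicate 1 (-1.63, limma adjusted p = 0.0251). Without dCas13d-ADAR EZH2 replicate 2, the library with the low level, the difference was -0.31 (limma adjusted p = 0.672). Of all 609 sites 74.2% had a positive difference, with a median of 0.34.

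Most other TFRC sites were listed by Repair.t1 alone or nearly so, and all 10 of its sites lay 363 to 2058 bases from the 3′ end of the span. Position 195777566, 1411 bases from that end, stood in all 4 Repair.t1 libraries, at 0.211 and 0.208 with the EZH2_A22 guide and 0.261 and 0.207 with the NT guide. No dCas13d-ADAR library listed it. Of the 4 sites in these genes that all 4 Repair.t1 libraries listed, it was the 1 absent from all 4 dCas13d-ADAR libraries; of all such sites of Repair.t1, 79 of 1053 (7.50%) were absent there. With so few sites the share in these genes cannot be set apart from that of all sites.

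Further TFRC sites stood in 2 Repair.t1 libraries each. Position 195778212, the base beside the leading site, was listed at 0.313 in Repair.t1 EZH2_A22 replicate 2 and 0.286 in NT replicate 2, against 0.882 and 0.909 at its neighbour in the same libraries. Position 195778162 was listed at 0.368 in dCas13d-ADAR EZH2 replicate 1, and at 0.348 and 0.450 in Repair.t1 EZH2_A22 replicate 2 and NT replicate 1. Both positions were well below the leading site wherever they were listed with it. Position 195777505 was listed at 0.250 in Repair.t1 EZH2_A22 replicate 2 and 0.412 in NT replicate 2, and position 195776629 at 0.190 in EZH2_A22 replicate 1 and 0.160 in NT replicate 2. The remaining 6 TFRC sites stood in 1 library each, at 0.190 to 0.333. DECOR listed 2 of these, at 0.308 and 0.250, and they lay 26016 and 18348 bases from the 3′ end, far from all sites of the other editors.

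**Figure D2:**
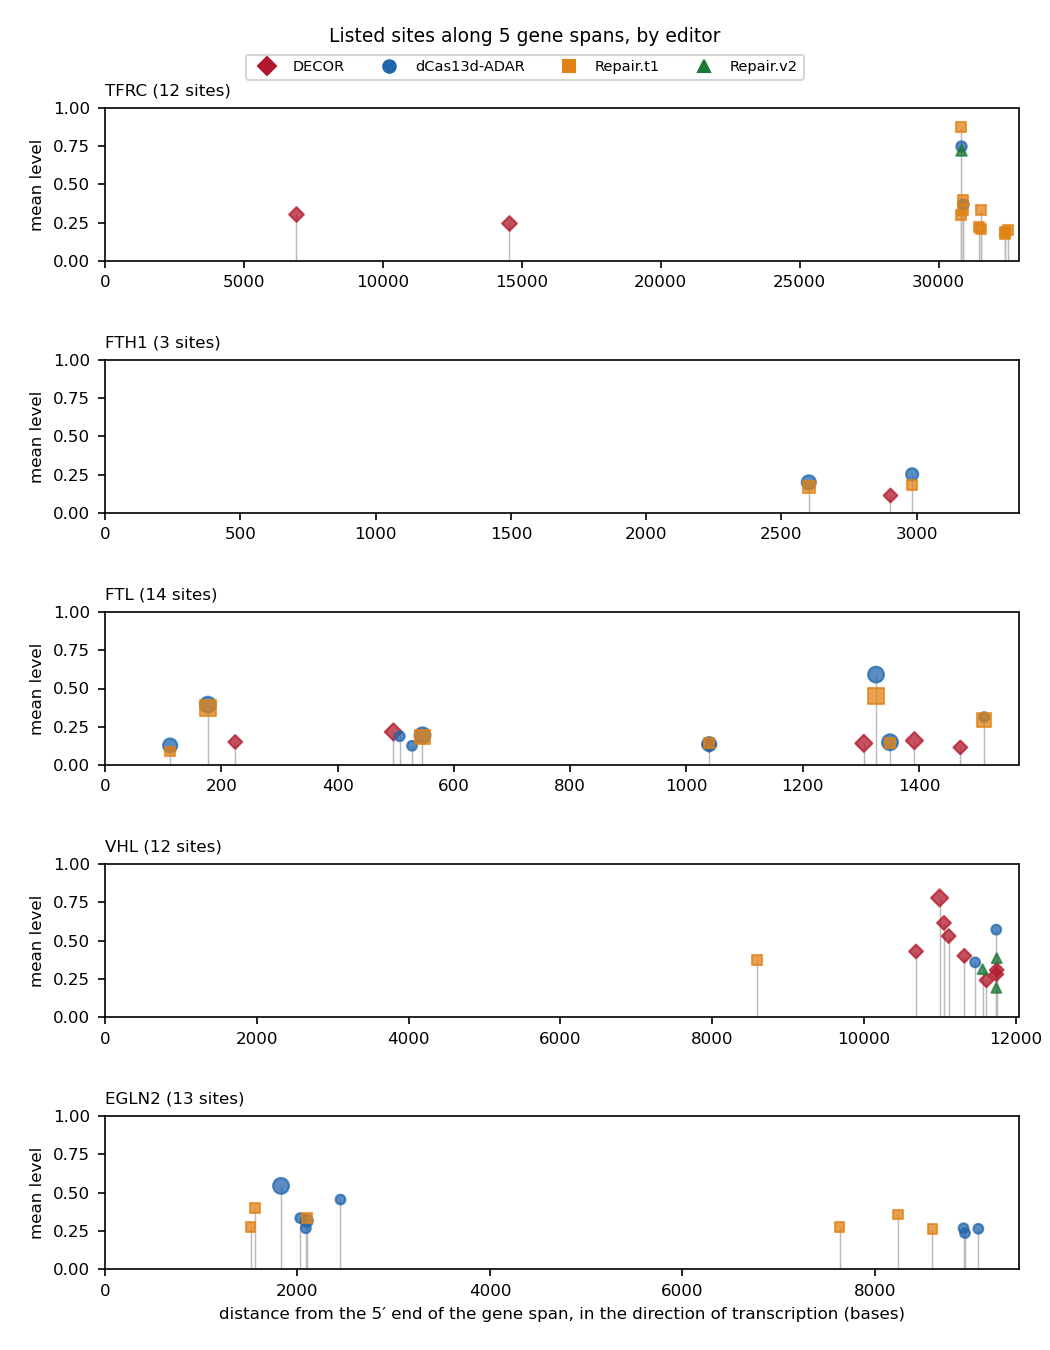
Mean editing level (vertical axis, fraction, over the libraries that listed the site) of each listed site against its distance in bases from the 5′ end of its gene span, in the direction of transcription, for 5 genes. Symbols mark the editor and larger symbols stand for more libraries; the sites of Repair.t1 in TFRC and of DECOR in VHL gather near the 3′ end of the span, and EGLN2 has a group of sites near each end.

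FTH1, the ferritin heavy chain, had few sites and low levels. Position 61732531 on chromosome 11 was listed at 0.259 in dCas13d-ADAR EZH2 replicate 1 and at 0.125 and 0.214 in both NT libraries of that editor. In Repair.t1 it was listed at 0.139 in EZH2_A22 replicate 2 and 0.196 in NT replicate 2. The values of the editors overlapped. Position 61732149 was listed at 0.20 and 0.304 in dCas13d-ADAR EZH2 replicate 1 and NT replicate 2 and at 0.182 in Repair.t1 EZH2_A22 replicate 1. DECOR listed 1 site, position 61732230, at 0.115 in replicate 1. The 3 sites lay 392 to 774 bases from the 3′ end. RefSeq names 27 FTH1 and 20 FTL pseudogenes, and reads from such copies could enter or leave the rates of both ferritin genes, so their levels are uncertain; how the authors treated reads with several matches is not given in the sources used here. The FTH1 span also overlaps BEST1 in RefSeq, and the lists hold no strand.

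FTL, the ferritin light chain, had 2 sites that every dCas13d-ADAR and Repair.t1 library listed. Position 49469892 on chromosome 19, 244 bases from the 3′ end, had levels of 0.591 and 0.714 in dCas13d-ADAR with the EZH2 guide and 0.548 and 0.511 with the NT guide. Repair.t1 had 0.267 and 0.412 with the EZH2_A22 guide and 0.641 and 0.476 with the NT guide. All 4 dCas13d-ADAR levels thus exceeded 0.5, as did 1 of the 4 Repair.t1 levels, and the editors overlapped. The means were 0.591 ± 0.0886 and 0.449 ± 0.155 (SD, n = 4 each), and dCas13d-ADAR minus Repair.t1 was 0.85 (SE 0.39) on the log2 odds scale with a limma adjusted p of 0.159. Leaving out Repair.t1 NT replicate 1 raised the difference to 1.24 and brought it past the threshold (limma adjusted p = 0.0445). It was 0.46 without Repair.t1 EZH2_A22 replicate 1 (limma adjusted p = 0.521) and 0.49 without dCas13d-ADAR EZH2 replicate 2 (limma adjusted p = 0.491). With NT libraries alone the difference turned to -0.18 (limma adjusted p = 0.911), and with EZH2 libraries alone it was 1.87 (limma adjusted p = 0.185).

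The guides set against NT are labelled EZH2 in dCas13d-ADAR and EZH2_A22 in Repair.t1, and they may not be the same guide; the fits across both editors treat them as 1 level. The guide difference at that FTL site had opposite signs in the 2 editors, and neither passed the test. In dCas13d-ADAR both EZH2 libraries were above both NT libraries, at a difference of 0.74 log2 odds (SE 0.49, limma adjusted p = 0.934). In Repair.t1 both EZH2_A22 libraries were below both NT libraries, at -1.31 (SE 0.50, limma adjusted p = 0.837). With 1 library left out the difference ranged from 0.35 (without EZH2 replicate 2) to 1.13 (without EZH2 replicate 1) in dCas13d-ADAR. In Repair.t1 it ranged from -1.78 to -0.83, the smallest sizes being -0.83 without NT replicate 1 and -0.85 without EZH2_A22 replicate 1. The difference of the guide effects, dCas13d-ADAR minus Repair.t1, was 2.05 (SE 0.73) with an unadjusted limma p of 0.00670 and an adjusted p of 0.518 over the 609 sites. This was the 1 site without overlap of guides among the 6 of these genes testable in dCas13d-ADAR and among the 4 in Repair.t1, and over all sites the share without overlap was 31.7% and 30.4% for these editors.

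The second shared FTL site, position 49468743, was base 178 of the span. dCas13d-ADAR had 0.439 and 0.342 with the EZH2 guide and 0.405 and 0.391 with the NT guide, and Repair.t1 had 0.511 and 0.317 with the EZH2_A22 guide and 0.265 and 0.406 with the NT guide. The Repair.t1 libraries spread over and beyond the range of the dCas13d-ADAR libraries. The means were 0.394 ± 0.0402 and 0.375 ± 0.108 (SD, n = 4 each), and the difference of 0.14 log2 odds (SE 0.36) did not pass in limma (adjusted p = 0.861).

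The 3 sites of these genes that could be tested between dCas13d-ADAR and Repair.t1 were the TFRC site and these 2 FTL sites, and 0 of the 3 passed an adjusted p of 0.05 in limma, 2 having an unadjusted p below 0.05. Of all 609 sites 44 passed (7.22%). At that share fewer than 1 of 3 sites would pass, so the count of 0 does not stand apart. The libraries of the editors overlapped at all 3 sites, where 81 of the 609 (13.3%) showed no overlap. Sites had to be listed in all 8 libraries to be tested, so sites that only 1 editor listed could not enter.

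Lower FTL sites were also shared by these editors. Position 49469112 was listed at 0.140 and 0.227 in dCas13d-ADAR with the EZH2 guide and 0.186 and 0.220 with the NT guide, and at 0.225, 0.152 and 0.167 in Repair.t1 (EZH2_A22 replicates 1 and 2 and NT replicate 1). The editors overlapped again. Position 49469916 stood in all 4 dCas13d-ADAR libraries, at 0.116 and 0.216 with the EZH2 guide and 0.116 and 0.143 with the NT guide, and in 1 Repair.t1 library, EZH2_A22 replicate 2, at 0.143. Position 49468678, the base 113 named above, was listed at 0.114 and 0.133 in dCas13d-ADAR EZH2 libraries, 0.133 in NT replicate 1 and 0.0870 in Repair.t1 EZH2_A22 replicate 2. The levels at position 49468678 were above 0.0209% to 5.11% of their lists. So near the bottom, a small change may move a site out of a list. Position 49470078, 58 bases from the 3′ end, went the other way, with 1 dCas13d-ADAR library (NT replicate 2, 0.313) and 3 Repair.t1 libraries (EZH2_A22 replicates 1 and 2, 0.235 and 0.412, and NT replicate 2, 0.231). dCas13d-ADAR EZH2 replicate 2 alone listed 2 more FTL sites, at 0.188 and 0.125.

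DECOR libraries listed FTL mostly at other bases and at low levels. Its sites in both libraries were position 49469062 (0.228 and 0.203 in replicates 1 and 2), position 49469871 (0.119 and 0.163) and position 49469958 (0.128 and 0.190). The other editors listed none of the 3, and position 49469871 lies 21 bases from the strongly edited position 49469892. The 1 FTL site that DECOR shared was position 49469605, at 0.130 in DECOR replicate 2, against 0.143 and 0.156 in dCas13d-ADAR EZH2 libraries, 0.109 in dCas13d-ADAR NT replicate 1 and 0.145 in Repair.t1 EZH2_A22 replicate 1. There the editors gave levels within 0.05 of each other. DECOR replicate 2 alone listed 2 further sites, at 0.15 and 0.114. Over its 9 listings in FTL the DECOR level was 0.114 to 0.228 with a median of 0.15; the medians were 0.188 over 25 listings for dCas13d-ADAR and 0.265 over 17 for Repair.t1, which are listings at partly different sites.

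VHL, the part of the ubiquitin ligase that recognises hydroxylated HIF1A, was where DECOR reached its highest levels in these genes. Position 10194316 on chromosome 3, 1038 bases from the 3′ end of the span, was listed at 0.769 and 0.789 in DECOR replicates 1 and 2 (mean 0.779 ± 0.0143, SD, n = 2) and by no other editor. It ranked first of 5516 sites in DECOR replicate 1 and second of 5855 in replicate 2, and these levels too may rest on few reads. The other 7 VHL sites of DECOR stood in 1 of its libraries each, at 0.240 to 0.615. Singled out after their values were seen, position 10194373 was listed at 0.615 in DECOR replicate 1 and position 10194435 at 0.529 in replicate 2, at levels above 99.6% and 99.0% of their lists. DECOR replicate 2 alone also listed positions 10194005, 10194641 and 10194933, at 0.429, 0.400 and 0.240, which were above 96.9%, 94.7% and 64.1% of its list. Positions 10194373 and 10194435 lie 57 and 119 bases from position 10194316. All 8 DECOR sites lay 286 to 1349 bases from the 3′ end of the span, and replicate 2 listed 7 of them where replicate 1 listed 2.

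A pair of bases near the end of VHL were shared by DECOR and Repair.v2. Position 10195063 was listed at 0.280 in DECOR replicate 2 and 0.190 in Repair.v2 NT replicate 1, and position 10195068 at 0.308 in DECOR replicate 2 and 0.385 in Repair.v2 EZH2_A22 replicate 2. Neither was in a dCas13d-ADAR or Repair.t1 list, and dCas13d-ADAR EZH2 replicate 2 listed the base before the first of them, position 10195062, at 0.571. In the whole series 6 sites were listed by DECOR and Repair.v2 and by neither of the other editors, and 2 of the 6 are these. That is 0.0229% of all sites and 3.70% of the sites in these genes. The genes were chosen from these same lists, so the difference in share was not tested and is no finding about VHL. Each of these 2 sites rests on 1 library per editor. Besides these and the DECOR sites, VHL had position 10194882 in Repair.v2 NT replicate 1 (0.313), position 10194784 in dCas13d-ADAR EZH2 replicate 1 (0.357) and position 10191913 in Repair.t1 EZH2_A22 replicate 2 (0.375). All 3 of these were named after their values were seen.

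**Figure D3:**
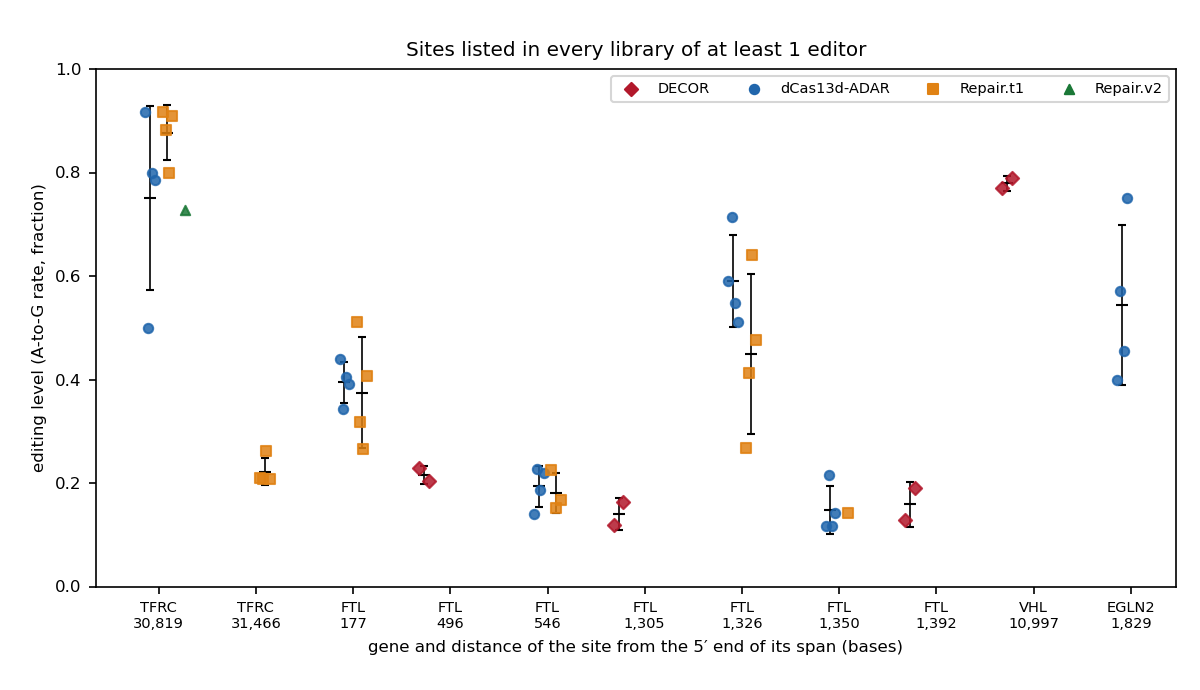
Editing level (fraction) in each library that listed the site, for the 11 sites listed in every library of at least 1 editor, labelled by gene and distance in bases from the 5′ end of the span. Symbols are libraries by editor, and black bars show the mean and SD where at least 2 libraries listed the site; dCas13d-ADAR and Repair.t1 overlap at the TFRC and FTL sites they share, and the DECOR sites carry symbols of DECOR alone.

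EGLN2 encodes a prolyl hydroxylase that marks HIF1A for VHL, and its leading site was listed by dCas13d-ADAR alone. Position 41306676 on chromosome 19 had levels of 0.400 and 0.571 with the EZH2 guide and 0.455 and 0.750 with the NT guide (mean 0.544 ± 0.155, SD, n = 4). The 2 guides overlapped, and EZH2 minus NT was -0.73 log2 odds (SE 0.57, limma adjusted p = 0.971). No Repair.t1, Repair.v2 or DECOR library listed the site. Of the 6 sites in these genes that all 4 dCas13d-ADAR libraries listed, it was the 1 absent from all 4 Repair.t1 libraries, beside 178 of 1665 sites (10.7%) in the full lists.

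The remaining EGLN2 sites varied from library to library. Position 41306943 was listed at 0.364 in dCas13d-ADAR EZH2 replicate 1, 0.267 in dCas13d-ADAR NT replicate 1 and 0.333 in Repair.t1 NT replicate 1. The other 11 sites stood in 1 library each, 6 in dCas13d-ADAR and 5 in Repair.t1, at 0.235 to 0.455. Along the gene the sites formed 2 groups, 7 of them 1513 to 2447 bases from the 5′ end and 6 of them 416 to 1858 bases from the 3′ end, with none in the 5186 bases between. RefSeq has the readthrough gene RAB4B-EGLN2 over the same span, and reads of the 2 cannot be told apart here.

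No guide difference passed the test at the sites of these genes that could be tested. EZH2 minus NT was tested at 6 sites in dCas13d-ADAR and at 4 in Repair.t1, and 0 passed in limma in either. The unadjusted p was below 0.05 at 0 of the 6 and at 1 of the 4, the FTL site at position 49469892. Over the full lists 0 of 1665 sites (0%) passed in dCas13d-ADAR, with 87 at an unadjusted p below 0.05, and 0 of 1053 (0%) in Repair.t1, with 61. By the interaction term in limma the guide effect differed between the editors at 0 of 609 sites (0%), and 41 had an unadjusted p below 0.05. At the TFRC site the guide difference was -0.23 (SE 0.69, limma adjusted p = 0.998) in dCas13d-ADAR and 0.49 (SE 0.50, limma adjusted p = 0.999) in Repair.t1.

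Most of these sites were not listed again by a second library. Of the 54 sites, 31 stood in a single library. Counted within an editor, 13 of 17 DECOR sites and 12 of 23 dCas13d-ADAR sites were in 1 library, beside 77.8% and 52.5% of all their sites. For Repair.t1 these were 15 of 26 sites and for Repair.v2 4 of 4, beside 57.3% and 74.6%. Among 17 DECOR sites 4 were in both libraries, beside 22.2% of all DECOR sites. For dCas13d-ADAR 6 of 23 sites were in all 4 libraries, beside 13.5% of all, and for Repair.t1 4 of 26, beside 9.89%. dCas13d-ADAR and Repair.t1 shared 12 sites, 52.2% of the 23 and 46.2% of the 26, where all their sites shared 47.0% and 54.5%. DECOR shared 3 of its 17 sites with any other editor, beside 3.75% of all its sites. Sites within 50 bases of another listed site made up 53.7% of the 54 and 47.6% of all 26172. No difference from the full lists was tested, because the genes were chosen with these results known.

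**Figure D4:**
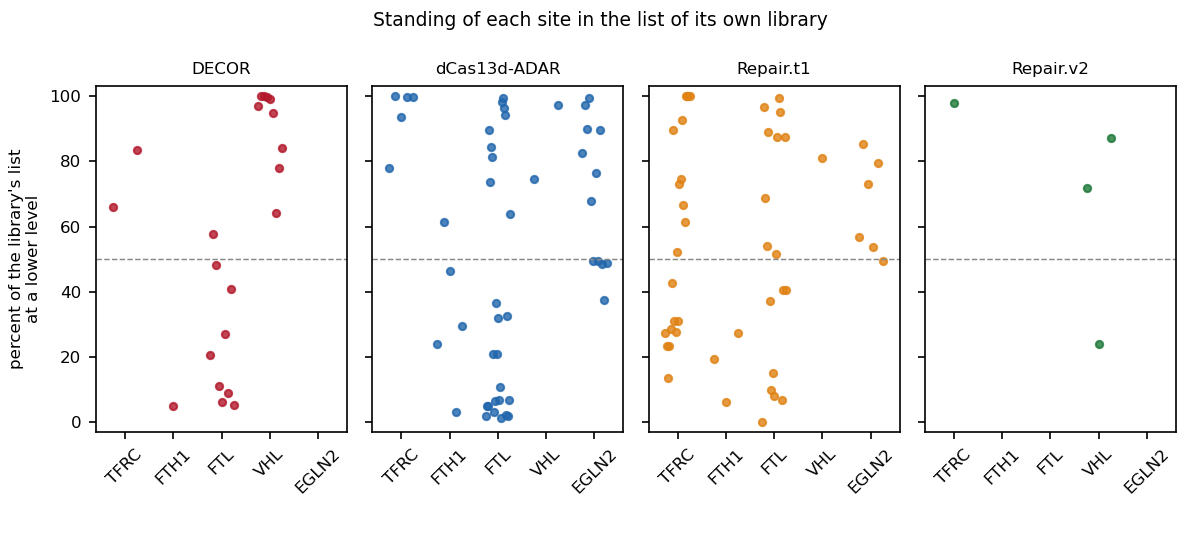
Percent of a library's list that lay at a lower level than the site (vertical axis) for each listing in the 6 genes, by gene (horizontal axis) and editor (panels); each point is 1 site in 1 library, side-by-side offsets within a gene carry no meaning, and the dashed line marks 50. TFRC reaches the top of the dCas13d-ADAR and Repair.t1 panels, VHL the top of the DECOR panel, and the DECOR points of FTL lie low.

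Sites whose levels were most like the leading ones were looked for across the full lists, by the root mean square difference of level. For the TFRC site, over the 8 dCas13d-ADAR and Repair.t1 libraries and 606 other sites, the nearest was position 235277158 of chromosome 1 (difference 0.204). After it came position 150345451 of chromosome 3 (0.208) and, with 0.210, position 76749730 of chromosome 5. Their mean levels were 0.665, 0.648 and 0.663, and that of the TFRC site was 0.814. The TFRC site was taken as the highest of its gene, and the gene was chosen by levels in these lists. That it stood above these like sites is therefore no finding about it. For the VHL site, over both DECOR libraries and 2063 other sites, the nearest was position 30536603 of chromosome 8 (0.0609), followed by position 104164830 of chromosome 14 (0.127) and, with 0.145, position 77083915 of chromosome X. Their mean levels were 0.721, 0.655 and 0.639 and that of the VHL site 0.779. The VHL site was taken in the same way, so the same limit applies.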

How the data were processed

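Editing in 6 genes was measured from lists of sites in 14 RNA libraries of HEK293T cells. The authors deposited 1 list per library with chromosome and position, and per the file headers the value they computed at each site is the A-to-G rate, a fraction. The submitters' processing notes name cutadapt, STAR 2.6.1b, hg19 and GRCh37. How sites were called, and with which thresholds or coverage, is not given in the sources used here. The lowest level in any list was 0.0597. The lists hold no read counts or strand, so depth is unknown and no counting interval could be given.

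Sites inside the 6 hg19 spans were kept, and distances run from the ends of a span. The strand of FTH1 and VHL is that generally known for these genes, and that of the other 4 is RefSeq's. Tests used the log2 odds of a level, after adding 0.01 to it and to its complement, in limma 3.58.1 (R 4.3.3) with empirical Bayes moderation. Each fit used all sites listed in every library compared, with Benjamini-Hochberg adjustment over them and a threshold of 0.05, and the test was tried on simulated data. Sites in at least 2 libraries are named, and all sites of a gene with 5 or fewer. The genes, lists and tests were chosen with earlier results of these data known. A list of other iron and oxygen genes was not used here, since no hg19 annotation was at hand. Alternatives were 0.001 added, untransformed levels, minimum levels of 0.1 and 0.2, sites missing from at most 1 library, sites in both libraries of a group, a trend of the spread, no guide covariate, 1 guide at a time, the replicate number as a block and each library left out. Python 3.11.15 with pandas 2.3.3, numpy 2.4.6 and matplotlib 3.10.9 was used.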

Additional observations from a re-analysis of the deposited data

Results flagged for a closer look

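At position 195777566 of TFRC the level of Repair.t1 NT replicate 1, 0.261, stood apart from the 0.211, 0.208 and 0.207 of the other Repair.t1 libraries. Its gap to the nearest of them was 0.933 of the whole range, above the critical value of 0.829 for 4 values. The range itself was small, and 13 sets of 4 libraries were looked at, of which chance alone marks about 1 in 20.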

How the results depend on the processing

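Of 193 values recomputed for the 16 tests of a named site, 176 kept their direction and their side of the threshold, 3 passed it (given above for TFRC and FTL) and 14 changed sign. Between dCas13d-ADAR and Repair.t1, 44 sites of the full lists passed; 10 to 42 did when a library was left out, with 10 without dCas13d-ADAR NT replicate 1, 18 without Repair.t1 EZH2_A22 replicate 2 and 19 without Repair.t1 NT replicate 2, and 2 passed with NT libraries alone and 0 with EZH2 libraries alone (168 and 114 at an unadjusted p below 0.05). With the replicate block 44 passed, and 0 in each guide comparison and in the difference of guide effects, as without it. No pairing by replicate number was seen, since deviations of same-numbered libraries correlated at -0.0146 to 0.0553 between groups. Such low correlations cannot exclude a pairing. In log2 odds, dCas13d-ADAR minus Repair.t1 ranged from -0.0936 to 0.42 at FTL position 49468743 with a library left out and was -0.12 with EZH2 libraries alone; it was -0.18 at FTL position 49469892 with NT libraries alone. With a library left out, EZH2_A22 minus NT in Repair.t1 ranged from -0.10 to 1.05 at FTL position 49468743, from -0.40 to 0.0213 at TFRC position 195777566 and from -0.13 to 1.11 at TFRC position 195778213. EZH2 minus NT in dCas13d-ADAR ranged from -1.63 to 0.17 at EGLN2 position 41306676, -0.34 to 0.24 at FTL position 49468743, -0.62 to 0.20 at FTL position 49469112, -0.16 to 0.85 at FTL position 49469916 and -1.89 to 1.42 at TFRC position 195778213. The difference of guide effects ranged from -1.10 to 0.0468 at FTL position 49468743 and from -2.38 to 0.93 at TFRC position 195778213. Sites in the 6 spans per library averaged 10.5 for DECOR, 12.3 for dCas13d-ADAR, 11.8 for Repair.t1 and 1 for Repair.v2; counting sites in both libraries of a group gave 4, 7.5, 5 and 0, and a level of at least 0.2 gave 6.5 for DECOR. With 1 library left out of a group of 2, the lone library is assumed to vary like the others. Apart from the fewer libraries, the cause of these changes was not tested. Depth is not given, and levels of thinly read sites were not set apart from those of well read ones. A rate taken over whole reads bounds the depth from below, which was not worked out here.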
